A study of Mus musculus with 48 samples.

Results

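The junctions described here lie on the J side of Igk, the immunoglobulin kappa light chain locus of the mouse. They were chosen by position alone: chromosome 6 from base 70654172 to base 70800000 of the mm9 build, in the 12 libraries whose bait was a break at Jk5, the last of the kappa joining segments. The stretch is 146 kb long and was read as a Vk-Jk interval of 18.4 kb, which runs from the last annotated Vk gene to Jk1, a Jk region of 1366 bp (70672556 to 70673921) and 126 kb downstream. It held 39865 of the 568001 junctions of these libraries (7.02%), with 2512 in the interval, 5277 in the Jk region and 32076 downstream. The annotated Vk genes held 508158 (89.5%). The strand and the group of each junction were not used to choose it.

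The libraries were made by LAM-HTGTS, in which linear amplification from a fixed primer (the bait) reads across a DNA joint into whatever sequence the broken bait was joined to (the prey). One line of a deposited list is one such joint, and each share below is a library's count divided by all its junctions, in percent. The v-Abl_cycling group (4 libraries) came from a 129sv pro-B cell line transformed with v-Abl, deficient for RAG2 and carrying the Emu-Bcl2 transgene, into which RAG2 was returned by retrovirus. Its title says cycling, while its labels list 4 days of 3 uM STI-571, an Abl kinase inhibitor that arrests such lines in G1. The BM_PreB group (3 libraries) came from bone marrow pre-B cells of wild-type 129 mice, with a general line on STI-571 in the labels of these samples too. The Untreated Wapl-degron (3 libraries) and IAADox Wapl-degron (2 libraries) groups came from a v-Abl transformed B6 pro-B line that is deficient for RAG1, has a single Igh allele, carries Emu-Bcl2, OsTIR1 and a degron tag on Wapl, and received RAG1/2 by retrovirus. Both had 3 uM STI-571 over 4 days, and the IAADox cells had 150 uM IAA, an auxin, and 2 mg/mL doxycycline for the last 3 of these. Wapl takes the cohesin ring off DNA, and in such cells the degron removes Wapl when auxin is given, so that comparison asks what Igk joining looks like with Wapl depleted. The comparison of v-Abl_cycling with BM_PreB sets a transformed pro-B line beside primary cells at the stage that rearranges Igk. Each v-Abl group is 1 line, the labels do not say whether it is 1 clone, and they do not say whether replicates are separate cultures or animals. p-values therefore measure only the spread between these libraries, which may be technical.

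The RAG endonuclease cuts between a coding segment and its recombination signal, a heptamer next to the segment and a nonamer set apart from it by a spacer. The coding ends are normally joined to each other and the signal ends to each other, and a joint of a coding end to a signal end is called a hybrid joint. Besides the J segments, this side of Igk is known for the recombining sequence RS, far downstream of the constant gene Ck, and for an intron heptamer between the J segments and Ck. When a Vk gene or the intron heptamer is joined to RS, Ck is deleted and the allele is silenced, a step known in pre-B cells on their way to lambda light chains.

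The sequences at which the junctions gathered are shown first, as 62-base windows of the mm9 plus strand. Capitals mark the heptamer, which is CACTGTG where the coding side is to the right (J segments, RS) and CACAGTG where it is to the left (intron heptamer). RS and intron heptamer are textbook names, since the annotation does not hold these elements. The intron heptamer is the only CACTGTG or CACAGTG between the Jk region and Ck. RS was taken as the heptamer of these letters past Ck with the most junctions in these 12 libraries. Its lead over other heptamers there therefore follows from the choice. The mm9 build is C57BL/6 sequence, while the v-Abl_cycling and BM_PreB cells are 129. The windows lie at chr6:70672514-70672575 (Jk1), chr6:70672868-70672929 (Jk2), chr6:70673175-70673236 (Jk3), chr6:70673500-70673561 (Jk4), chr6:70673838-70673899 (Jk5), chr6:70674973-70675034 (intron heptamer) and chr6:70701733-70701794 (RS).
Jk1: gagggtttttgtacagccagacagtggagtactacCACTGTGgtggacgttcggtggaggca
Jk2: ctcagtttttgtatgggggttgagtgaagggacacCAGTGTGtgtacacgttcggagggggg
Jk3: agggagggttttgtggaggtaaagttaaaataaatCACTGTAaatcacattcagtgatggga
Jk4: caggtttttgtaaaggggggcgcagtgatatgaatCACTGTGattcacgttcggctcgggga
Jk5: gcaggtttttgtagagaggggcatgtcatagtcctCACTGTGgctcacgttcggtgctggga
intron heptamer: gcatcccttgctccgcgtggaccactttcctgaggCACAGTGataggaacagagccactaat
RS: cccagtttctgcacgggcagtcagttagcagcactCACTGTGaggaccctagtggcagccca
Jk2 and Jk3 each match 6 of the 7 heptamer bases, and the other 5 elements match all 7. The 9 bases that stand 23 bp from the heptamer match the J-side nonamer at 9 positions for Jk1 and Jk5, at 8 for Jk2, at 6 for RS, at 5 for Jk4 and at 4 for Jk3. With the spacing free between 21 and 25 bp, Jk4 matches at 9 positions (24 bp) and Jk3 at 8 (21 bp). The intron heptamer lies 1.09 kb past the end of the Jk region, in the Jk-Ck intron. RS lies 27.8 kb past the Jk region, past the Ck gene (Igkc), in intergenic sequence.

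The most frequent joints at the leading elements show what was joined to what. Bait reads ran on the minus strand towards the Vk genes, and 94.1% of bait ends over all junctions lay within 5 bp of base 70673880, the first coding base of Jk5. In the joints below, read on the bait strand, the bait is in lower case and the prey that follows it in capitals. They are the most frequent joint at the RS signal side, at the coding side of the intron heptamer, and at the signal and coding sides of Jk1.
RS signal side: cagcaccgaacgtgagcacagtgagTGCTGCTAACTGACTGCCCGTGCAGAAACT
intron heptamer coding side: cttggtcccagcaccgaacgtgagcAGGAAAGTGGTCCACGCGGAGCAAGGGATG
Jk1 signal side: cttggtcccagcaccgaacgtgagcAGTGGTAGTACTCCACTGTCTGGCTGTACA
Jk1 coding side: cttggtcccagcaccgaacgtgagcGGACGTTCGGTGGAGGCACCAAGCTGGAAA
The first made up 3540 of the 25482 junctions on that side of RS (13.9%, in 8 libraries). Its bait and prey alignments both cover 9 bases, but in 97.8% of its lines the bait alignment has a gap. Read without a gap, all 55 bases are those of the Jk5 coding end followed by the whole RS signal end, with 1 base that belongs to either, so it is a hybrid joint. The intron joint made up 746 of 4974 junctions (15.0%, 8 libraries) and joins the Jk5 coding end to the coding side of the intron heptamer with 1 shared base. The Jk1 signal joint made up 585 of 2362 junctions (24.8%, 10 libraries), also with 1 shared base, and is a hybrid joint of the Jk5 coding end with the Jk1 signal end. The Jk1 coding joint made up 87 of 798 (10.9%, 8 libraries) and joins both coding ends directly. For J segments and RS, minus-strand prey therefore hold the signal side and plus-strand prey the coding side. For the intron heptamer this is the other way round.

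The libraries differed in depth, from 1945 to 151435 junctions. The v-Abl_cycling libraries were the smallest (1945 to 5478), and replicates 2 and 4 stood apart, with 67.2% and 66.4% of junctions outside Igk against 28.7% and 25.7% in replicates 1 and 3. Outside-Igk junctions were at most 0.167% in BM_PreB, 1.91% to 2.17% in Untreated and 13.2% and 10.0% in IAADox Wapl-degron. Shares of all junctions move with this, so most results on the v-Abl_cycling group are also given over Igk junctions where that changes them. Those for the sites just past Jk1, Jk2 and Jk4 are given over all junctions only. Replicates 2 and 4 of v-Abl_cycling, the smallest libraries, differed least of the group's pairs (chi-square over lines in 111 sites and bins, p = 0.0138). The other pairs had p of 2.31e-13 or less by the same test. Lines are not independent molecules, so the test cannot tell whether replicates 2 and 4 are distinct samples. Both were kept as separate libraries, but the labels do not say whether they came from separate DNA, and if not, the 4 libraries are 3 samples. BM_PreB, the Wapl-degron line and v-Abl_cycling were each sequenced in a run of their own, so run and group cannot be told apart for any comparison with BM_PreB, while IAADox and Untreated shared 1 run.

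The junctions were highly concentrated. Positions joined over gaps of up to 20 bp on a strand formed 128 clusters, of which the 26 with at least 10 junctions held 39614 junctions (99.4%). These 26 sites, 3 in the interval, 10 in the Jk region and 13 downstream, are the units of the site tests below. Among them, 17 were on the minus strand and 9 on the plus strand. An exact heptamer, CACTGTG or CACAGTG on the plus strand, lay within 15 bp of 11 of the 26 sites, and 0.891% of all 31-base windows of the stretch hold one. The 3 bases CAC or GTG, where RAG-cut heptamers begin, lay within 5 bp of 21 of the 26, and within 5 bp of 27.3% of all positions. The reverse did not hold: of the 53 exact heptamers in the stretch, 6 had a site within 10 bp. A heptamer match is a description of the letters and not evidence of cutting. No junction fell in Igkc, the constant exon that the RS deletion removes, which allows a share of up to 5.28e-04% of the 568001.

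**Figure D1:**
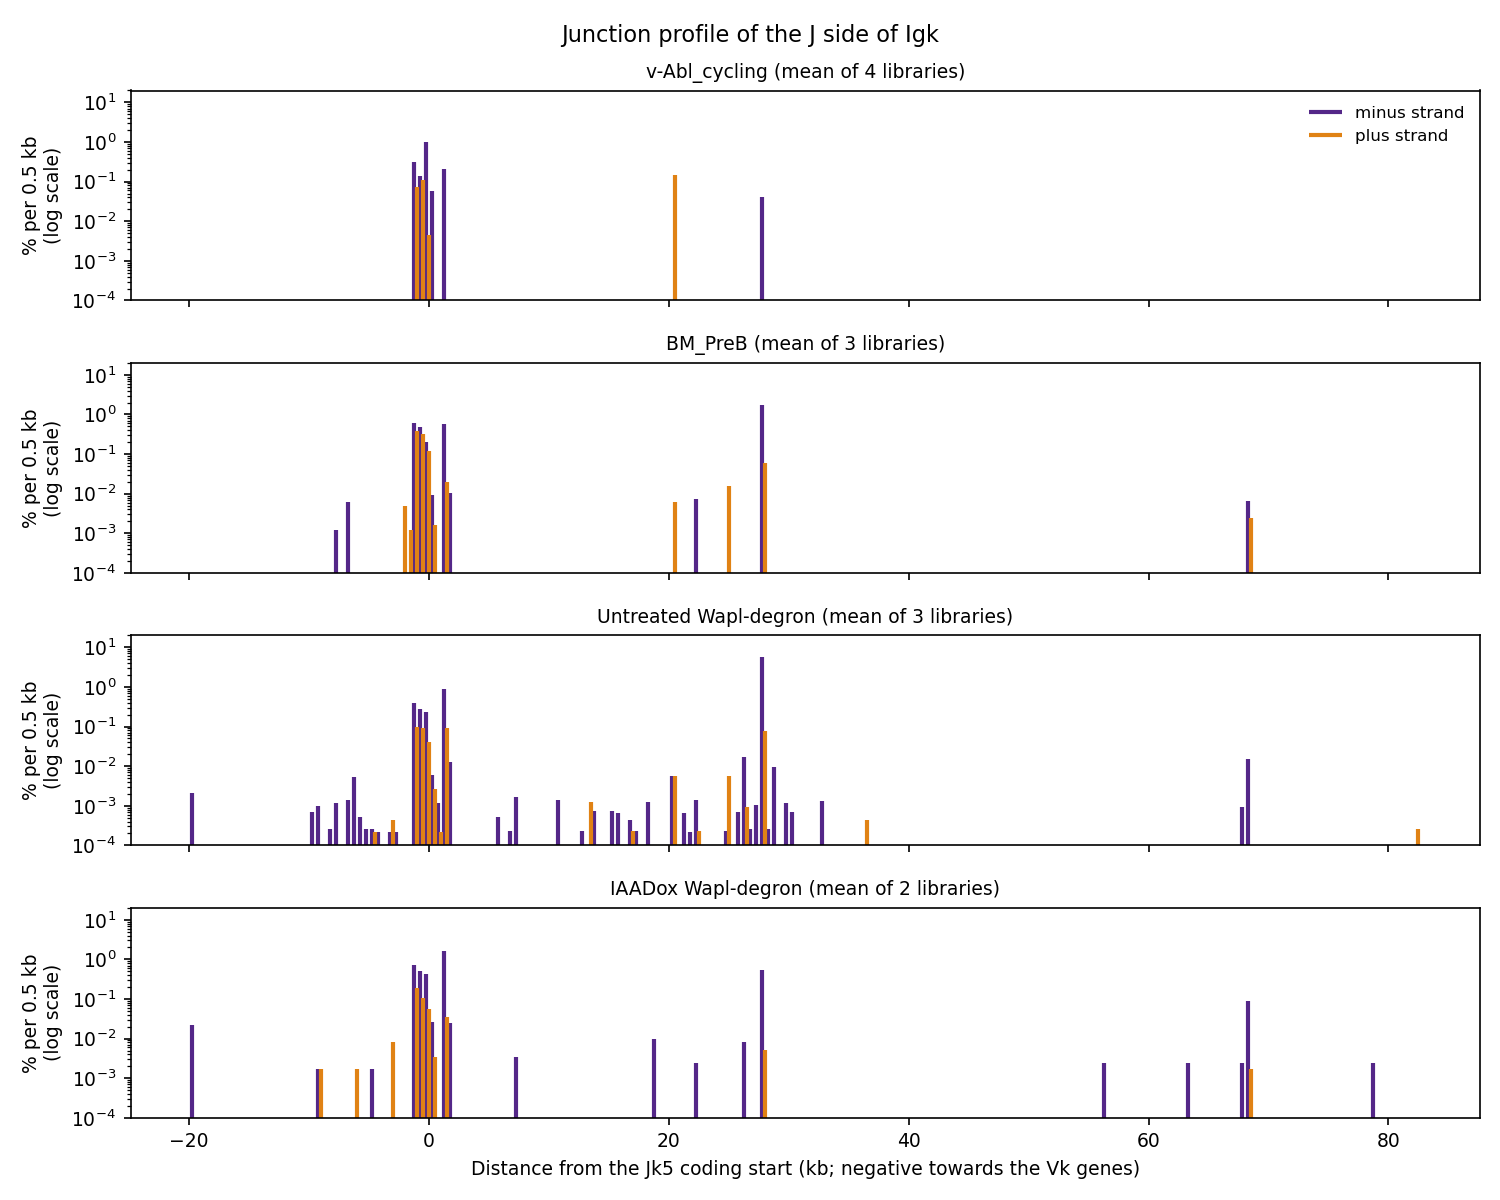
Junction profile around the J segments for each group, as the mean over libraries of the percent of all junctions per 0.5 kb (log scale), against the distance from the first coding base of Jk5 in kb, with minus-strand prey in purple and plus-strand prey in orange. The tall lines are the J segments, the intron heptamer at 1.09 kb past the Jk region and RS at 27.8 kb, which is the highest line in BM_PreB and Untreated Wapl-degron and nearly missing in v-Abl_cycling.

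In the Wapl-degron line, the J side took a smaller share of junctions after IAA and doxycycline, and it was the downstream stretch that shrank. The downstream share was 6.49%, 7.54% and 6.40% in the Untreated libraries and 2.71% and 2.06% in the IAADox libraries. The interval share was 0.404%, 0.390% and 0.394% in Untreated and 0.794% and 0.690% in IAADox. The Jk share was 0.745% ± 0.0581 (SD, n = 3) in Untreated and 1.32% ± 0.0608 (SD, n = 2) in IAADox. Thus all IAADox libraries were below all Untreated libraries downstream, and above them in the other 2 stretches. Each difference had p = 0.200 in a two-sided exact permutation test over libraries, which is the smallest that 2 against 3 allows (0.233 after Benjamini-Hochberg adjustment over 21 share tests), so these shares cannot pass 0.05 by design. The same joint was listed on more lines in the deeper Untreated libraries (10.4 to 11.6 lines per distinct junction of the J side, against 3.03 and 3.48 in IAADox). With each distinct junction counted once among 20270 lines of each library, which left 6168 and 5660 distinct junctions in IAADox and 4618 to 4769 in Untreated, the mean shares of these for IAADox and Untreated were 2.57% and 5.11% downstream, 0.643% and 0.620% in the interval and 1.92% and 1.75% in the Jk region. Counted that way the downstream difference remained and those of the interval and the Jk region were mostly gone.

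**Figure D2:**
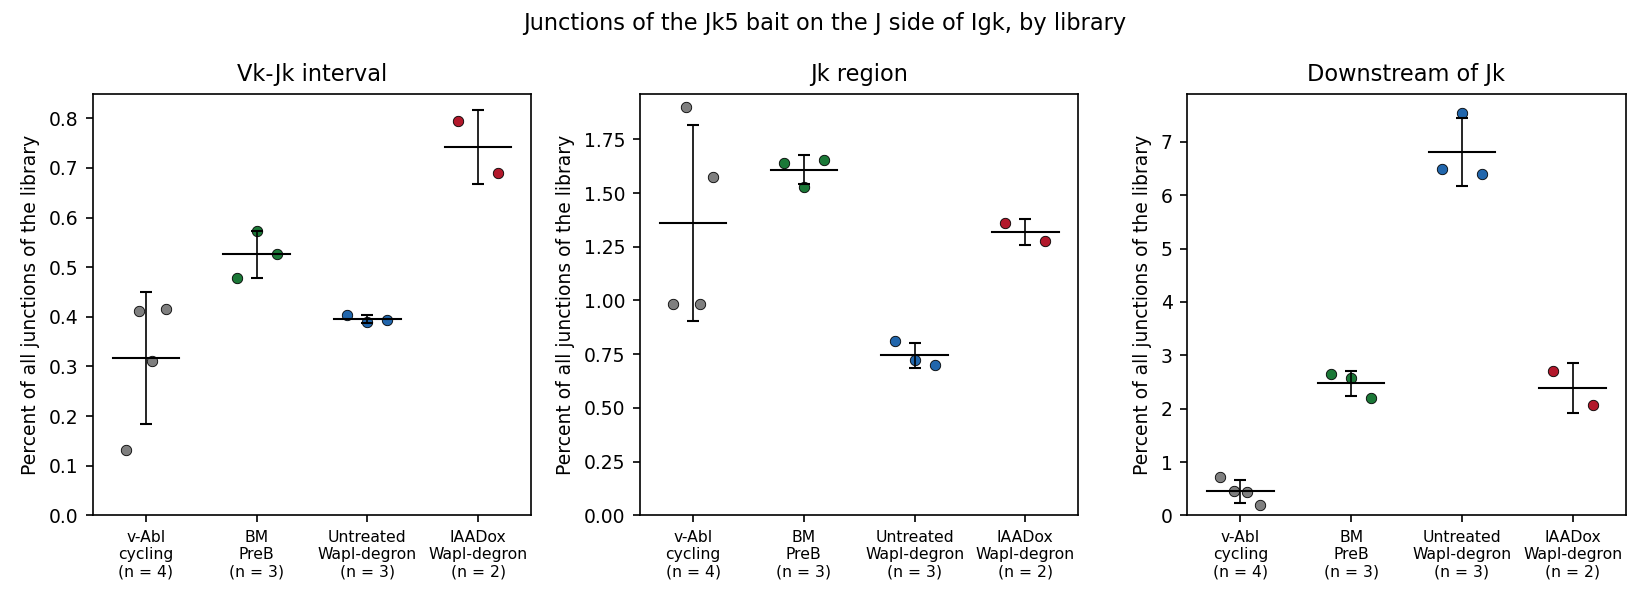
Percent of all junctions of each library (points) in the Vk-Jk interval, the Jk region and the downstream stretch, with the group mean (line) and SD (bars). IAADox libraries lie above Untreated libraries in the interval and the Jk region and below them downstream, where the means are 2.39% and 6.81%.

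At the level of sites, 23 of the 26 had at least 10 junctions in the Wapl-degron libraries, and 9 were called higher and 3 lower in IAADox by limma at an adjusted p under 0.05. Over all 203 Igk sites in that fit 23.2% were called higher and 25.1% lower. The median log2 fold change was 0.48 over the 23 and -0.09 over the 203. The libraries of both groups did not overlap at 20 of the 23, and at 71.9% of all sites tested. Counting distinct junctions once changed this split to 2 higher and 9 lower of 21, and that over all sites moved the same way, to 20 higher and 84 lower of 174 with a median log2 fold change of -0.56.

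The interval was almost empty apart from its last bases. Within 20 bp of the Jk1 heptamer lay all its junctions in each v-Abl_cycling library, 95.1% to 100% in BM_PreB, 95.3% to 96.4% in Untreated and 95.7% and 94.1% in IAADox. The leading site, on the minus strand at 70672553 (chr6:70672538-70672558), is therefore the signal side of Jk1, the J segment nearest to the Vk genes. It had 6, 7, 17 and 9 junctions in v-Abl_cycling and 91, 179 and 129 in BM_PreB. It had 578, 526 and 482 in Untreated and 147 and 191 in IAADox, which are 0.374% ± 0.00667 (SD, n = 3) and 0.684% ± 0.0582 (SD, n = 2) of the libraries. Both IAADox libraries were above all Untreated libraries. The fitted log2 fold change was 0.86 with an SE of 0.15 (adjusted p = 0.00197 by limma), and 0.12 when distinct junctions were counted once (limma adjusted p = 0.484).

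Further into the interval only 2 other sites reached 10 junctions. The minus-strand site at 70667462 lay 13.3 kb into the interval, beside an exact J-type heptamer at 70667464, on its signal side. It had 7, 8 and 8 junctions in the Untreated libraries and none in any of the 9 other libraries. Against IAADox this did not pass the test (limma adjusted p = 0.120). Against BM_PreB it was called higher in Untreated (limma log2 fold change 1.60, adjusted p = 0.0424, at least 1.45-fold). That call was lost without any 1 of the BM_PreB libraries (0.0965 to 0.143), without Untreated replicate 3 (0.0557) and with distinct junctions counted once (0.107). The minus-strand site at 70667109 had 5 junctions in 1 BM_PreB library and 5 and 1 in 2 Untreated libraries. The fourth position of the interval by its percent averaged over groups, on the plus strand at 70670552, had 3 junctions, all in IAADox. At its first bases, the heptamer of the last Vk gene, lay 19 junctions whose cluster belongs to that gene and entered no site here. The rest of the interval thus gave too few junctions to compare groups at this depth.

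Within the Jk region the bait can meet Jk1, Jk2, Jk3 and Jk4 upstream of its own segment. Jk3, a segment known to be non-functional in the mouse, had 0 of 568001 junctions within 13 bp of its heptamer, which allows up to 5.28e-04%. Its heptamer reads CACTGTA in the window shown above, and the 9 bases at the usual spacing match the nonamer at 4 positions, or at 8 with a spacing of 21 bp. Jk2, which had junctions, also matches 6 of the 7 heptamer bases, and Jk4 matches the nonamer at 5 positions at the usual spacing. Why Jk3 had no junction was not tested. Among junctions at Jk1, Jk2 and Jk4, Jk1 took 48.9% ± 0.759 in BM_PreB (SD, n = 3), 44.5% ± 0.929 in Untreated (SD, n = 3) and 48.6% ± 3.10 in IAADox (SD, n = 2). Jk2 took 34.0%, 31.4% and 29.5% in the same order, and Jk4 took 17.1%, 24.1% and 21.9%. Over lines the order Jk1, Jk2, Jk4 held in every library of these 3 groups, and the Jk4 share of BM_PreB (15.7% to 18.4%) did not overlap with that of Untreated (23.6% to 24.9%). Distinct signal and coding joints in BM_PreB replicate 2 were 18 and 19 at Jk1 and 20 and 17 at Jk2, so Jk1 did not lead there. The Jk4 shares were not compared over distinct junctions. In v-Abl_cycling the 85 junctions at these segments were too few to order Jk1 and Jk2 (20, 9, 44 and 12 per library).

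**Figure D3:**
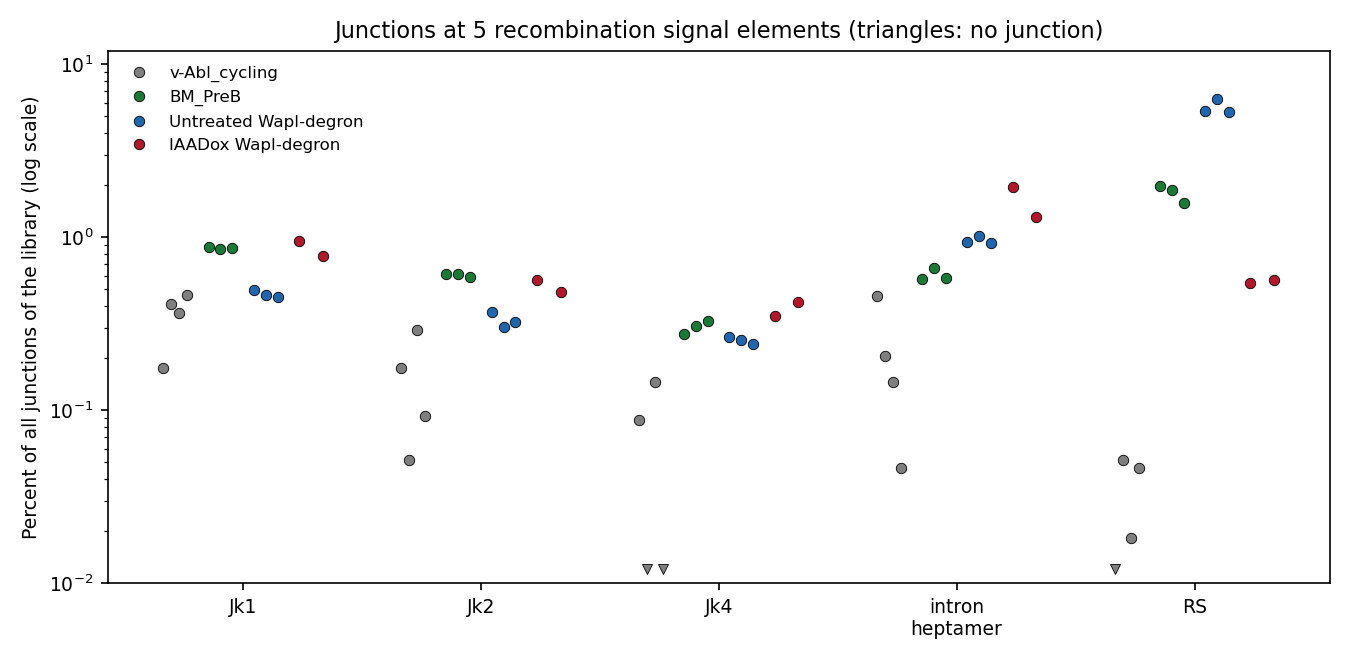
Percent of all junctions of each library within 13 bp of the heptamer edge of Jk1, Jk2, Jk4, the intron heptamer and RS (log scale), with 1 point per library and a triangle for a library with no junction. RS is the element with the widest range, from 0.0514% or less in v-Abl_cycling to at least 5.34% in Untreated, with IAADox at 0.569% or less, while the 3 J segments keep the order Jk1, Jk2, Jk4 in BM_PreB, Untreated and IAADox.

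The signal sides of the J segments rose together in IAADox when all lines were counted. The Jk2 signal site (70672905, minus) was 0.243% ± 0.0253 (SD, n = 3) in Untreated and 0.426% ± 0.0319 (SD, n = 2) in IAADox, a log2 fold change of 0.80 (limma adjusted p = 0.00782). The Jk4 signal site (70673540, minus) was 0.220% ± 0.0187 and 0.368% ± 0.0460, a log2 fold change of 0.76 (limma adjusted p = 0.0113). With distinct junctions counted once these became -0.05 and -0.18, and the Jk4 call was also lost without IAADox replicate 2 (limma adjusted p = 0.115). On the coding sides, Jk1 (70672558, plus) rose from 0.114%, 0.0962% and 0.0809% to 0.237% and 0.145%, a log2 fold change of 0.91 (adjusted p = 0.0312, limma). That call was lost without Untreated replicate 2 (limma adjusted p = 0.0727) and without IAADox replicate 1 (0.241), and with distinct junctions counted once (0.23, adjusted p = 0.406). The coding sides of Jk2 (0.06) and Jk4 (0.48) did not pass the test, with limma adjusted p of 0.877 and 0.278.

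A separate kind of site lay just past the 3' ends of Jk1, Jk2 and Jk4, on the minus strand at 70672600, 70672955 and 70673593. J segments are near-copies of each other, and at these sites the bait and prey alignments overlapped by 12 or more bases in 96.5%, 100% and 99.1% of junctions. No heptamer was within 15 bp. Whether these lines are joints was not tested. The first had 0.131% ± 0.0221 in BM_PreB (SD, n = 3), 0.0151% ± 0.00105 in Untreated (SD, n = 3) and 0.0508% ± 0.00906 in IAADox (SD, n = 2). The second had 0.183%, 0.0299% and 0.0691% in the same groups. The site past Jk4 had 0.00876%, 0.00355% and 0.0415%, so at all 3 sites the mean of Untreated was below those of BM_PreB and IAADox. In v-Abl_cycling it had 0.649% ± 0.411 (SD, n = 4), above BM_PreB, while the first 2 sites were below BM_PreB there (0.0100% and 0.0137%). In IAADox against Untreated all 3 were called higher, by 1.79, 1.25 and 3.42 on the log2 scale (limma adjusted p of 0.00355, 0.0111 and 3.87e-04). Counted as distinct junctions the first 2 were no longer called (0.62 and 0.67, adjusted p of 0.180 and 0.111), and the second was also lost without IAADox replicate 2 (0.0907). The site past Jk4 had 3 distinct junctions in Untreated (15 lines) and 3 in IAADox (20 lines), too few to be tested that way, so its fold rests on repeated lines of very few junctions. For single sites the part of these long overlaps in the differences between groups was not tested. Without them the mean Jk share was 0.694% in Untreated and 1.13% in IAADox. It was 1.29% in BM_PreB and 0.494% in v-Abl_cycling.

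The side of the heptamer that was joined differed between BM_PreB and the Wapl-degron line. At Jk1 the signal side made up 49.5%, 64.4% and 54.9% of junctions in BM_PreB, 77.5%, 79.6% and 82.4% in Untreated, and 76.6% and 82.0% in IAADox. At Jk2 it made up 47.2% ± 6.62 (SD, n = 3), 72.9% ± 1.89 (SD, n = 3) and 81.5% ± 3.39 (SD, n = 2), and at Jk4 61.3%, 84.5% and 86.5%. Thus, over lines, BM_PreB had about as many coding as signal joints at Jk1 and Jk2, while hybrid joints prevailed in both Wapl-degron groups. Counted as distinct junctions, signal and coding joints at Jk1 were 18 and 29, 18 and 19, and 20 and 27 in the BM_PreB libraries. They were 75 and 53, 64 and 39, and 72 and 32 in Untreated, and 34 and 25, and 39 and 20 in IAADox. The minus-strand share of the whole Jk region does not count the Jk1 signal side, which lies in the interval, and does count the sites past the J segments. It was 49.0%, 54.3% and 46.4% in BM_PreB and 70.4%, 70.5% and 69.6% in Untreated, with no overlap (difference 20.3 percentage points, p = 0.100, two-sided exact permutation test, the smallest that 3 against 3 allows). Without junctions within 1000 bp of the bait, which leaves only sites at Jk1 in the region, it turned to 16.3% in Untreated and 27.0% in BM_PreB. With all junctions it was 73.6% and 77.6% in IAADox, above all Untreated libraries (p = 0.200, the smallest possible, exact permutation), and 95.6%, 97.3%, 85.2% and 70.6% in v-Abl_cycling, above all BM_PreB libraries (p = 0.0571, the smallest that 4 against 3 allows, exact permutation). Without junctions whose bait and prey overlap by 12 or more bases the v-Abl_cycling share was 68.4% ± 30.7 (SD, n = 4, 23.1% to 88.9%) and that of BM_PreB 37.3% ± 5.76 (SD, n = 3, 31.7% to 43.2%), and the groups overlapped.

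**Figure D4:**
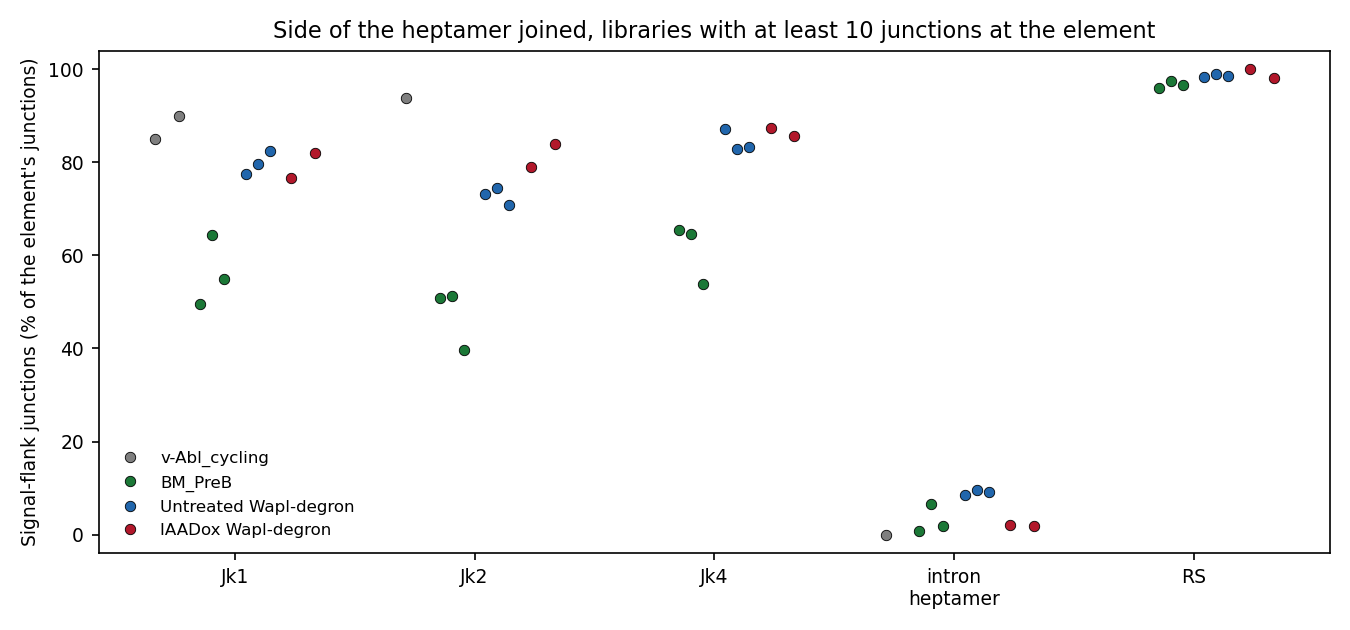
Percent of the junctions at an element that hold the signal side of its heptamer, for each library with at least 10 junctions there. BM_PreB lies between 39.6% and 65.5% at Jk1, Jk2 and Jk4 and the Wapl-degron libraries between 70.8% and 87.3%, while the intron heptamer is below 10% and RS above 95% in all libraries shown.

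Joint structure at the J segments was short-ranged in every group with enough junctions. At the Jk1 signal side a median of 2 bases was missing from the heptamer edge in BM_PreB, Untreated and IAADox, and 1.25%, 3.22% and 3.85% of joints kept the edge whole. In v-Abl_cycling 71.8% of 39 joints kept it whole, and these 39 lines were 10 distinct junctions. Bait and prey shared bases in 59.1%, 61.8% and 61.8% of Jk1 signal joints of BM_PreB, Untreated and IAADox, and extra bases stood between them in 5.51%, 13.4% and 17.2%. At the Jk1 coding side extra bases were present in 22.5%, 21.4% and 17.2%. These are counts over lines, so they describe the lists and carry no test.

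The intron heptamer, the upstream partner of RS in the textbook deletion of Ck, was the second most used site over the 12 libraries together. By group, it was the most used site in IAADox, while in v-Abl_cycling it had fewer junctions (34) than the site past Jk4 (72) and the Jk1 signal site (39). Its minus-strand site (70675004, chr6:70674941-70675014) holds the coding side and had 21, 4, 8 and 1 junctions in v-Abl_cycling and 119, 202 and 153 in BM_PreB. It had 1303, 1318 and 1091 in Untreated and 393 and 387 in IAADox. As shares these were 0.860%, 0.925% and 0.840% in Untreated and 1.94% and 1.30% in IAADox, with no overlap. The fit gave a log2 fold change of 0.83 with an SE of 0.17 (adjusted p = 0.00384 by limma). With distinct junctions counted once among equal numbers of lines the mean shares were 1.58% in IAADox and 1.19% in Untreated. The signal side, on the plus strand at 70675010, moved the opposite way, with 126, 140 and 110 junctions in Untreated and 8 and 9 in IAADox (fitted at -1.30 on the log2 scale with an SE of 0.35, adjusted p = 0.0147 by limma). That call was lost without Untreated replicate 2 (limma adjusted p = 0.0513) and without IAADox replicate 2 (0.176). The signal side was 8.57% to 9.61% of the junctions at this element in Untreated and 2.03% and 1.79% in IAADox.

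Over the 12 libraries together RS, itself picked by its count among heptamers past Ck, had the most junctions of any site on the J side. It also had the largest fall in share after IAA and doxycycline. Its minus-strand site (70701774, chr6:70701646-70701780), which holds the signal side, had 8122, 9008 and 6887 junctions in the Untreated libraries and 111 and 166 in the IAADox libraries. These were 5.36%, 6.32% and 5.30% of all junctions in Untreated and 0.548% and 0.559% in IAADox. It was thus 10.2-fold lower in IAADox by the fit (-3.34 on the log2 scale with an SE of 0.18, adjusted p = 7.90e-06 by limma). With distinct junctions counted once among equal numbers of lines, the mean shares were 0.540% ± 0.0530 (SD, n = 2) and 3.06% ± 0.197 (SD, n = 3). The coding side of RS, on the plus strand at 70701777, had 129, 98 and 98 junctions in Untreated and 0 and 3 in IAADox. Its share in Untreated was 12.8 times that in IAADox, with a 95% interval of 4.33 to 62.3 that covers counting error only (limma log2 fold change -3.78, adjusted p = 0.00462). Without IAADox replicate 1 that log2 fold change was -2.70, and without replicate 2 the IAADox side had no junction, so no fold is given. Both sides of RS thus fell together.

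The ratio of RS to the intron heptamer within each library does not depend on the library size. It shows how they changed relative to each other, not which way each moved. RS signal junctions per intron coding junction were 6.16, 6.84 and 6.29 in Untreated and 0.287 and 0.433 in IAADox. Counted as distinct junctions they were 2.46, 2.61 and 2.25 in Untreated, 0.292 and 0.459 in IAADox and 1.42, 1.20 and 1.77 in BM_PreB. Over lines they were 3.34, 2.92 and 2.67 in BM_PreB, so RS outnumbered the intron heptamer in 6 of the 6 BM_PreB and Untreated libraries and in none of the 2 IAADox libraries. In v-Abl_cycling the ratio rested on 3 RS junctions and 34 intron junctions in all and was 0, 0.250, 0.125 and 1.00. RS junctions spread over many joints, since the Untreated libraries had 347, 358 and 279 distinct RS signal joints, BM_PreB 44, 48 and 55, and IAADox 31 and 39. The most frequent joint took 12.7% to 18.9% and the 10 most frequent 67.7% to 76.6% of the RS signal junctions in each of these libraries. The structure of the RS joint was close between groups. A median of 2 bases was missing at the RS signal edge in BM_PreB and 3 in Untreated and in IAADox, and the edge was whole in 16.5%, 20.6% and 21.3%. Shared bases were present in 57.3%, 56.0% and 57.0% of these joints.

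Beyond RS by more than 200 bp lay 178 junctions. The minus-strand site at 70741904 (chr6:70741898-70741905), which was singled out after its values were seen, lies in an exon of Rpia, a gene for an enzyme of the pentose phosphate pathway. It had 2, 2 and 1 junctions in BM_PreB, 12, 23 and 27 in Untreated and 19 and 24 in IAADox, and none in v-Abl_cycling. Its share was 0.0150% ± 0.00652 (SD, n = 3) in Untreated and 0.0873% ± 0.00916 (SD, n = 2) in IAADox, at 2.65 on the log2 scale (limma adjusted p = 0.00152), or 1.19 with distinct junctions counted once (0.00712). No exact heptamer lay within 15 bp. The median change over all sites of the fit was -0.09, so this site moved in the opposite direction to RS.

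**Figure D5:**
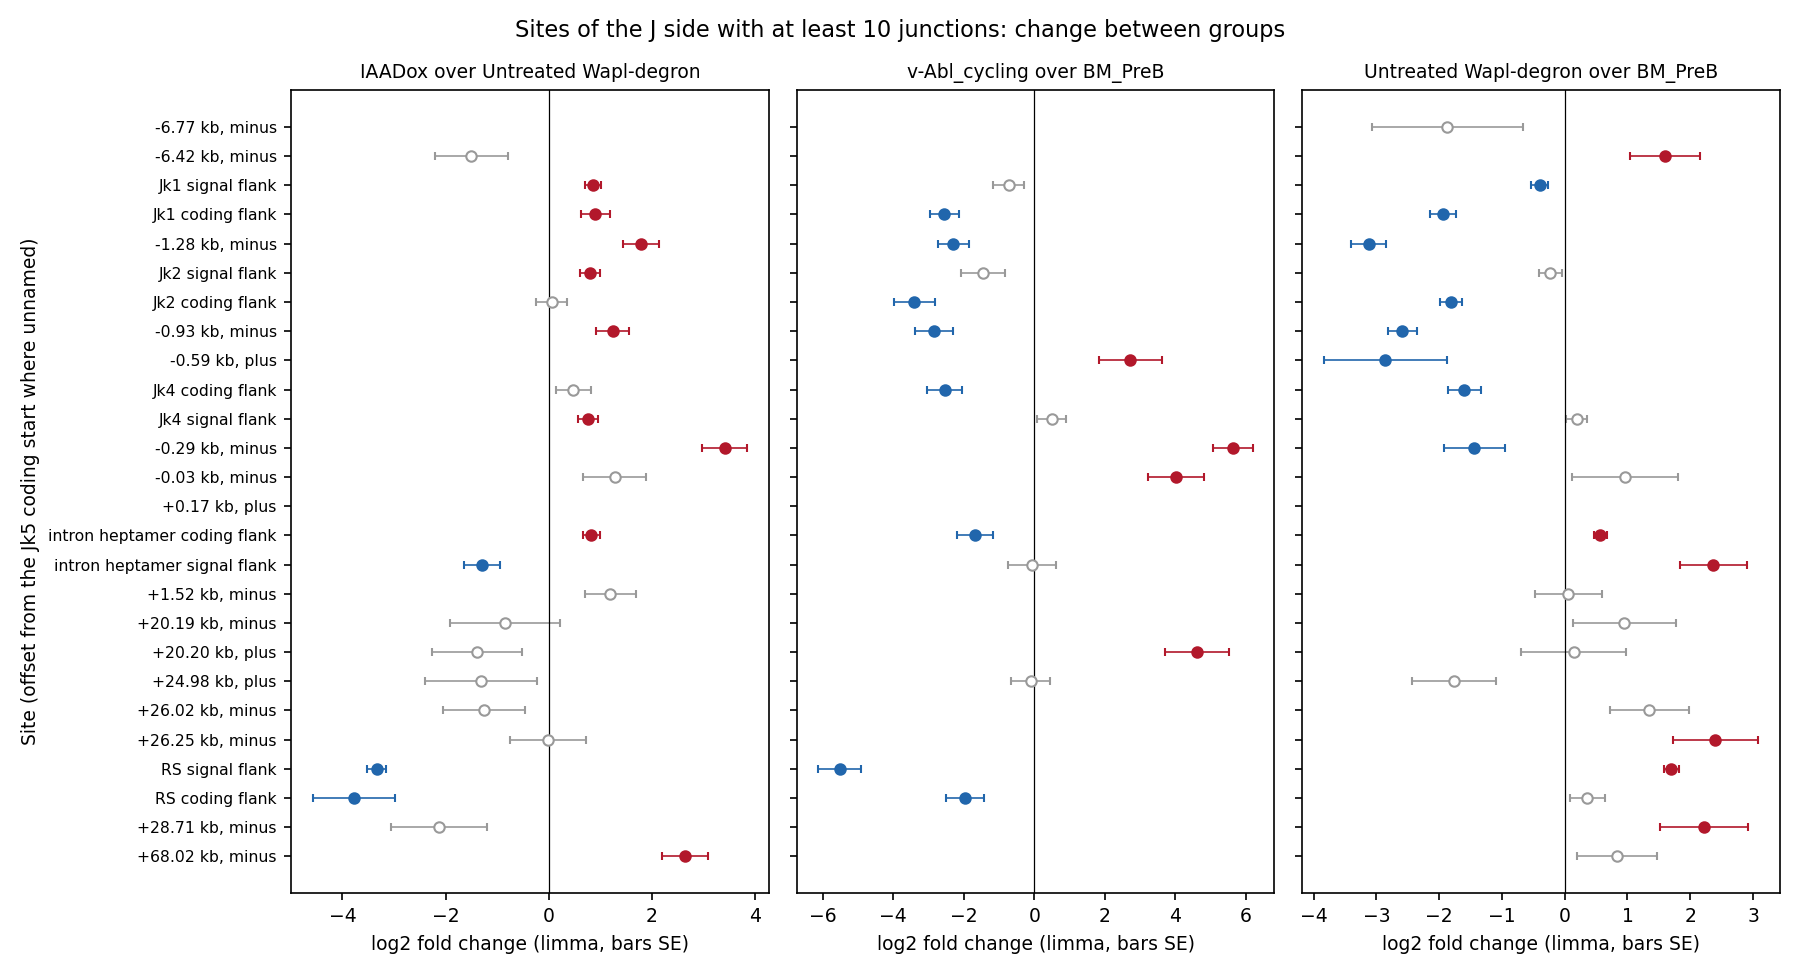
log2 fold change (points) with SE (bars) from limma for each site of the J side that entered a fit, in order along the chromosome, with red for sites called higher, blue for sites called lower and open grey points for the rest. RS is far to the left in the first 2 panels (-3.34 and -5.51) and to the right in the last (1.70).

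In v-Abl_cycling against BM_PreB, RS joining was nearly missing. The RS signal site had 0, 2, 1 and 1 junctions in v-Abl_cycling and 398, 589 and 408 in BM_PreB, or 0.0418% ± 0.0449 (SD, n = 4) and 1.75% ± 0.205 (SD, n = 3). The fit placed the change at -5.51 on the log2 scale with an SE of 0.61 (adjusted p = 6.10e-06 by limma), and the groups did not overlap. Without replicates 2 and 4 it was -6.65 (limma adjusted p = 5.39e-05), with Igk junctions as the library size -4.75 (2.91e-15) and with distinct junctions counted once -4.19 (3.97e-04). The coding side of RS had no junction in v-Abl_cycling and 17, 16 and 14 in BM_PreB, which is at least 2.77-fold lower against a floor of 3 counts over the group. The fit called this site lower (-1.97, limma adjusted p = 0.00572), and it was not called with Igk junctions as the library size (adjusted p = 0.261). The downstream share was 0.720%, 0.463%, 0.438% and 0.185% in v-Abl_cycling and 2.64%, 2.58% and 2.20% in BM_PreB (p = 0.0571, two-sided exact permutation test, the smallest possible, 0.191 after Benjamini-Hochberg adjustment). Over Igk junctions it remained lower in every v-Abl_cycling library (0.551% to 1.41% against 2.21% to 2.65%).

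Of the 17 sites tested in that comparison, 4 were called higher and 8 lower in v-Abl_cycling, against 7.48% higher and 54.4% lower of all 147. The median log2 fold change was -1.45 over the 17 and -1.53 over the 147. This general shift was -0.50 with Igk junctions as the library size and -0.45 with median-of-ratios factors, and the J side then had 5 sites called higher and 5 lower with either, beside 29 higher and 54 lower (Igk size) or 29 and 51 (median-of-ratios) of all 147. Without v-Abl_cycling replicates 2 and 4, a choice made after seeing the data, 3 were higher and 9 lower, beside 21 and 78 of all 145. With distinct junctions counted once 1 was higher and 11 lower of 14, beside 1 and 99 of all 136. The libraries did not overlap at 13 of the 17 sites, and at 69.4% of all. The intron heptamer coding side, at 0.214% ± 0.176 (SD, n = 4) and 0.588% ± 0.0330 (SD, n = 3), was called lower (-1.68, limma adjusted p = 0.0112) but not with Igk junctions as the library size (-0.71, adjusted p = 0.141). The coding sides of Jk1, Jk2 and Jk4 were each lower, by -2.55, -3.41 and -2.54 on the log2 scale (limma adjusted p of 1.20e-04, 1.93e-04 and 4.98e-04), with 7, 3 and 1 junctions in the whole v-Abl_cycling group. Without replicates 2 and 4 these were -2.65, -4.21 and -2.79, and the intron value was -1.15 (limma adjusted p of 0.00144, 1.98e-04, 0.00305 and 0.0282). With Igk junctions as the library size the 3 coding sides were -1.70, -2.54 and -1.55 and still called (limma adjusted p of 0.00337, 7.78e-05 and 0.0358). The signal sides of Jk1, Jk2 and Jk4 were not called (-0.72, -1.45 and 0.49, limma adjusted p of 0.177, 0.0578 and 0.320). With Igk junctions as the library size Jk4 was called higher (1.12, limma adjusted p = 0.0145), with the other two at -0.14 and -0.27 (0.749 and 0.652). All 3 were called lower with distinct junctions counted once (-1.79, -2.73 and -1.53, limma adjusted p of 0.00183, 0.00659 and 0.00440), on 10, 7 and 11 distinct junctions in v-Abl_cycling. In that setting the median log2 fold change over all 136 sites was -2.14, so Jk1 and Jk4 fell less than it and Jk2 more. Without replicates 2 and 4 the Jk1 signal side was called lower (-1.19, limma adjusted p = 0.0215), beside a median of -1.15 over all 145 sites. Of the 34 v-Abl_cycling junctions at 70673540, 11 lay within 13 bp of the Jk4 heptamer edge with an overlap under 12 bases, beside 150 of 154 in BM_PreB. The shares of these were 0.0873%, 0%, 0.128% and 0% in v-Abl_cycling, below the 0.182%, 0.198% and 0.178% in BM_PreB. The direction for Jk4 thus depends on how lines are counted and on which lines are taken as its signal side.

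The 4 sites called higher in v-Abl_cycling were the site past Jk4, a site at the bait, the plus-strand site at 70673289 and the plus-strand site at 70694080. With distinct junctions counted once the site at the bait was still called higher (2.27, limma adjusted p = 0.00876). The sites at 70673289 and 70694080 had too few distinct junctions to be tested that way. The site past Jk4 was 0.436%, 1.18%, 0.237% and 0.741% in v-Abl_cycling and at most 0.00956% in BM_PreB, with a log2 fold change of 5.62 (limma adjusted p = 3.16e-06). It was 4.96 without replicates 2 and 4 (limma adjusted p = 6.69e-05). Its 72 junctions in v-Abl_cycling were 9 distinct junctions, and counted so it was not called (1.03, limma adjusted p = 0.0545). The site at 70673846 lies at the bait (chr6:70673766-70674044), around Jk5, and had 5, 2, 2 and 2 junctions in v-Abl_cycling and 5, 0 and 1 in BM_PreB. Its log2 fold change of 4.01 (limma adjusted p = 5.64e-04) was 5.05 without BM_PreB replicate 1, 2.98 without replicate 2 and 4.73 with Igk junctions as the library size. The site at 70673289 was a single position with 0, 1, 3 and 5 junctions against 5, 1 and 1 (2.72, limma adjusted p = 0.0162), and leaving out any of v-Abl_cycling replicates 3 and 4 or BM_PreB replicates 2 and 3 ended that call (adjusted p of 0.0549 to 0.0575). The value was 3.63 without BM_PreB replicate 1, 3.61 without v-Abl_cycling replicate 1 and 1.68 without v-Abl_cycling replicates 2 and 4.

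The plus-strand site at 70694080 lies 20.2 kb past the Jk region, between Ck and RS, at the coding edge of an exact J-type heptamer at 70694075. It had 10, 2, 15 and 0 junctions in v-Abl_cycling, 3, 0 and 1 in BM_PreB, 6, 5 and 12 in Untreated and none in IAADox. The log2 fold change over BM_PreB was 4.60 (limma adjusted p = 5.64e-04), although the libraries overlapped. It was 5.39 without v-Abl_cycling replicate 4, 5.23 without BM_PreB replicate 1, 3.46 without BM_PreB replicate 2, 5.61 without v-Abl_cycling replicates 2 and 4, and 5.80 with Igk junctions as the library size. The signal side of the same heptamer, on the minus strand at 70694074, had 18 junctions, all in Untreated (2, 12 and 4), and was named after its values were seen. Its mean share in Untreated was 0.00428%, while a count of 0 allows up to 0.00600% in IAADox, 0.0212% in v-Abl_cycling and 0.00374% in BM_PreB. At 70694080 the Untreated mean was 0.00557%, so the lack of IAADox junctions at either site shows no difference at this depth. The 27 v-Abl_cycling lines were 5 distinct junctions (1, 2, 2 and 0 per library), and the 4 lines at RS were 4 distinct junctions, too few to rank both elements.

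The Jk share as a whole did not separate v-Abl_cycling from BM_PreB. It was 0.982%, 1.90%, 0.986% and 1.57% against 1.64%, 1.53% and 1.66%, with overlap (p = 0.457, two-sided exact permutation test). Over Igk junctions the means were 3.30% (1.33% to 5.80%) and 1.61% (1.53% to 1.66%), so the direction turned, again with overlap. Without joints that overlap by 12 or more bases, a setting added after seeing the data, it was 0.494% ± 0.132 (SD, n = 4) against 1.29% ± 0.0499 (SD, n = 3). The interval share was 0.131%, 0.411%, 0.310% and 0.417% against 0.478%, 0.573% and 0.527%, below in every library (p = 0.0571, exact permutation). Over Igk junctions it was 0.184%, 1.25%, 0.418% and 1.24% against 0.479%, 0.574% and 0.528%, with overlap, and replicates 2 and 4 were then the highest. The direction for the Jk region and the interval therefore depends on whether junctions outside Igk are counted in the total.

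In Untreated Wapl-degron against BM_PreB, the J side held more RS joints and fewer coding joints at J segments. RS signal was 5.66% ± 0.573 in Untreated and 1.75% ± 0.205 in BM_PreB (SD, n = 3 each), 3.25-fold higher (1.70 on the log2 scale with an SE of 0.12, adjusted p = 2.79e-06 by limma). Counted as distinct junctions the log2 fold change was 0.98 (limma adjusted p = 6.92e-05). The coding side of RS did not pass the test (0.36, SE 0.28, limma adjusted p = 0.326), so the excess over BM_PreB was measured on the signal side alone. The intron heptamer was higher on its coding side (0.57, limma adjusted p = 0.00272), which was 0.08 with distinct junctions counted once (adjusted p = 0.545). It was also higher on its signal side (2.37, limma adjusted p = 0.00533, 3.16 without BM_PreB replicate 2, and 1.49 with distinct junctions counted once), with 126, 140 and 110 junctions against 1, 14 and 3. BM_PreB libraries enter this comparison and the preceding one, and the Untreated libraries enter this one and the first, so these comparisons are not independent.

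The coding sides of Jk1, Jk2 and Jk4 fell in Untreated relative to BM_PreB. Jk1 coding was 0.114%, 0.0962% and 0.0809% against 0.445%, 0.307% and 0.397%, which the fit placed at -1.94 on the log2 scale with an SE of 0.20 (adjusted p = 3.98e-05 by limma). Jk2 coding was 0.0915% ± 0.0108 against 0.319% ± 0.0321 (SD, n = 3 each), at -1.81, and Jk4 coding 0.0393% ± 0.00464 against 0.119% ± 0.0297, at -1.60 (limma adjusted p of 2.28e-05 and 6.88e-04). No Untreated library overlapped with a BM_PreB library at any of the 3. With distinct junctions counted once these became -1.16, -1.03 and -0.70 and were still called (limma adjusted p of 0.00136, 7.77e-04 and 0.0212). The signal sides moved far less, with -0.40 at Jk1 (limma adjusted p = 0.0285), -0.23 at Jk2 and 0.19 at Jk4, and the last 2 were not called (adjusted p of 0.314 and 0.398). The Jk1 signal call was lost without BM_PreB replicate 2 (limma adjusted p = 0.151), BM_PreB replicate 3 (0.0699) or Untreated replicate 2 (0.0658), and its value was -0.05 with median-of-ratios factors and with distinct junctions counted once. The sites past Jk1 and Jk2 were lower by -3.12 and -2.59 (limma adjusted p = 1.42e-05 for both), and by -1.18 and -1.26 with distinct junctions counted once (0.0175 and 0.0106). The plus-strand site at 70673289, with 0, 3 and 2 junctions against 5, 1 and 1, was lower by -2.86 (limma adjusted p = 0.0388). It ranged from -3.32 to -1.92 over the 4 libraries whose omission left it in the test. Its call was lost without BM_PreB replicate 3 (limma adjusted p = 0.0641) or Untreated replicate 1 (0.0908). Without BM_PreB replicate 1 or Untreated replicate 2 it had too few junctions to be tested. The site past Jk4 was lower by -1.44 (limma adjusted p = 0.0382), a call lost when any 1 of the 6 libraries was left out (adjusted p of 0.0527 to 0.116).

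Over the 25 sites tested against BM_PreB, 6 were called higher and 8 lower in Untreated, beside 15.8% and 32.1% of all 215. The median log2 fold change was 0.14 over the 25 and -0.16 over the 215, and the libraries did not overlap at 18 of the 25 and at 62.8% of all. Median-of-ratios factors moved the overall median to 0.19 and the split to 8 higher and 6 lower, and that over all sites from 34 and 69 to 57 higher and 54 lower. Leaving out any single BM_PreB library left 8 or 9 of the 14 calls, and 79 to 86 sites were then called over all Igk sites, from 103. Also called higher were the minus-strand site at 70700125, before RS, with 17, 20 and 7 junctions in Untreated and none in BM_PreB (at least 2.77-fold, limma adjusted p = 0.0169), and the minus-strand site at 70702593, past RS. The latter had 7, 17 and 15 junctions and none in BM_PreB (at least 2.46-fold, limma adjusted p = 0.0284). Both calls were lost without any 1 of the BM_PreB libraries (0.0598 to 0.0787 and 0.0850 to 0.110) and held with distinct junctions counted once (0.00164 and 0.00301). These 2 were named after their values were seen. In IAADox the first had 2 and 2 junctions and the second none.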

How the data were processed

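LAM-HTGTS junction lists of 12 Igk-bait libraries were analysed, 1945 to 151435 junctions each. The authors' deposited lists hold 1 junction per line, with the read's name and the positions, strands and alignment ends of its bait and prey, per the file headers, and no normalization. Reads were aligned to mm9 with Bowtie2, per the submitters' processing notes, with its version and the filter thresholds not given in the sources used here. The file headers name filters for duplicate, repeat-sequence, misprimed and low mapping quality reads, among others. These filters and the lack of molecular identifiers decide how often a joint is listed and whether near-identical J segments can be told apart, so lines are not independent molecules, and intervals and floors cover counting error only.

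Lines were counted here by position, strand and library. The members, gene names and lists of elements were chosen with earlier results of these data known. For shares, the groups' means were set against each other in an exact, two-sided permutation of libraries (Python 3.11.15, pandas 2.3.3, numpy 2.4.6, scipy 1.17.1). The 21 resulting p-values (7 measures in 3 comparisons) were adjusted by Benjamini-Hochberg. Sites whose 2 groups together held 10 junctions or more entered, over the whole Igk table, limma 3.58.1 (voom, prior count 0.5, Benjamini-Hochberg, adjusted p under 0.05) in R 4.3.3, with total junctions as the library size and the spread shared over sites. This test was checked on simulated counts with 8-fold changes and without repeated lines. The check therefore does not cover smaller changes or the repeated lines of these lists. A count of 0 allows up to 3 counts. Plots were drawn with matplotlib 3.10.9.

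Sites named are the 4 most used of each sub-region, the 3 with the largest change per comparison among called sites without overlap, and those that hold J segments or Ck; other named sites are said to be chosen after their values were seen. The likeness of sites across libraries was not given as a correlation, because the libraries fall into groups. Replicate numbers do not pair the libraries: deviations of same-numbered libraries from their group means, over the 26 sites, correlated at -0.285 to 0.0843. Alternatives were the library size, the count minimum, the site gap (5 and 50 bp), distinct junctions, junctions within 1000 bp of the bait, each library left out, the replicate block and, for the shares of IAADox against Untreated, the run. Splenic samples were not analysed here.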

Additional observations from a re-analysis of the deposited data

Results flagged for a closer look

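Within v-Abl_cycling, 1 library stood far from the other 3 for 4 of 21 measures by Dixon's test on the gap to the nearest library over the whole range. Chance gives this for about 1 in 20 groups of values without ties. Where 3 libraries tie, the gap is 1.00 whatever the size of the difference, so that rate does not apply to the values of 1.00 below. The gap was 1.00 for the minus-strand share of the interval, where replicate 2 was at 87.5% and the others at 100%, a difference that comes to 1 junction of 8. It was 1.00 for the site past Jk2 (70672955, minus), with 3 junctions in replicate 3 and none elsewhere, and 1.00 for Jk4 coding (70673539, plus), with 1 junction in replicate 3. It was 0.854 for the minus-strand site at 70673540, with 0.411% in replicate 2 and 0.201% to 0.231% in the others. None of the junctions of replicate 2 at this site was counted at the Jk4 heptamer itself. That gap therefore does not describe Jk4 signal joints.

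The JH-bait libraries, whose bait lies on chromosome 12, also reached the J side of Igk. Over their 25 lists, 2143 of 10275487 junctions (0.0209%) fell in the stretch, for which no background level was measured, and 20 of the lists had at least 1. Of these, 1939 (90.5%) were in the Jk region, 93 in the interval and 111 downstream. At the elements they were 631 at Jk1, 469 at Jk2, 0 at Jk3, 541 at Jk4, 313 at Jk5, 53 at the intron heptamer and 46 at RS. The share was 0.0381% in primary untreated, 0.0430% in Wapl-degron untreated and 0.0377% in Wapl-degron IAA/Dox libraries, 0.0313% in untreated and 0.0179% in IAA/Dox libraries of the Wapl-degron single igh line, 9.84e-04% in its INV IAA/Dox group, and 2.59e-04% and 4.16e-04% in the bone marrow groups.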

How the results depend on the processing

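The share tests could not pass 0.05 by design in any setting, so only direction and size are compared for them, and 271 of 277 alternative share values kept their direction. That count includes settings that could not move a value. These are read names counted once, since each line has its own read name, and the run for IAADox against Untreated, which shared a run. With distinct junctions counted once, the Jk share of IAADox against Untreated became -0.0545 percentage points, the interval share of Untreated against BM_PreB 0.0132, and the Jk2 and Jk4 signal sites in IAADox against Untreated -0.05 and -0.18 on the log2 scale. With Igk junctions as the denominator, v-Abl_cycling against BM_PreB became 0.346 for the whole stretch, 0.247 for the interval and 1.69 for the Jk region. Leaving out junctions within 1000 bp of the bait turned the Jk minus-strand share of Untreated against BM_PreB to -10.8, since only sites at Jk1 then remain in the Jk region. For 8 of 43 alternatives the count of sites called on the J side moved by over 1.5 times: with sites of at least 1 junction it was 74 of 125 for IAADox against Untreated, 24 of 31 for v-Abl_cycling against BM_PreB and 72 of 110 for Untreated against BM_PreB, where many more sites are tested (478 of 806, 202 of 272 and 534 of 784 over all of Igk). With at least 100 junctions it was 6 of 9 for v-Abl_cycling and 9 of 12 for Untreated, each against BM_PreB, where fewer sites are tested (73 of 112 and 88 of 131 over all). Leaving out 1 library gave 10 to 14 called sites for IAADox, 11 to 13 for v-Abl_cycling and 8 to 13 for Untreated against BM_PreB, and 64 to 109, 81 to 93 and 79 to 105 over all of Igk. With the replicate block, although the numbers do not pair the libraries, 14, 11 and 11 sites were called (107, 86 and 101 over all of Igk), and 4 of 35 named sites lost their call. Of 356 alternatives for named sites, 307 kept direction and call, 47 lost the call and 2 reversed. A block for the run was not fitted for sites, since run and group coincide against BM_PreB and 1 run holds all Wapl-degron libraries. Where no cause is given, the cause was not tested. The settings without v-Abl_cycling replicates 2 and 4, without long overlaps and with thinned distinct junctions were added after seeing the data. Depth limits the v-Abl_cycling group most: a count of 0 allows up to 0.154% in its smallest library and 0.00198% in the deepest Untreated library.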
